A study of Rattus norvegicus with 6 samples.

Results

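Germ cells carry a set of RNA-binding proteins and small-RNA factors many of which are little used by other cells. Of 10 such genes chosen by name, 8 were represented on the arrays of neonatal rat ovary, by 11 probes of the 30367 measured. These 8 were Ddx4, Dazl, Mael, Piwil1, Piwil2, Tdrd1, Cpeb1 and Nanos3. No probe was matched to Tdrd9 or Ybx2, and these genes were not analysed here. Probes were assigned to a gene through their RefSeq accession. The rule names the genes and uses no measured value, but it was written with earlier results of these data known.

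The experiment asked how an immune challenge in the first week of life changes gene expression in the ovary. Female Wistar rat pups were injected intraperitoneally with 0.05 mg/kg of lipopolysaccharide (LPS) from Salmonella, or with the same volume of saline. Injections fell on postnatal day (PND) 3 and again on PND 5, and whole ovaries were taken on PND 7. LPS is a component of the bacterial outer membrane that activates Toll-like receptor 4. Ovarian RNA was hybridised to 6 single-colour Agilent arrays, 3 for each treatment (LPS 1 to 3 and saline 1 to 3), and which animals stand behind each array is not given in the sources used here. By the study's methods, whole litters were allocated to a treatment and the animals of each treatment came from a pair of litters, so arrays of a treatment can share a litter, litter and treatment cannot be told apart, and the p-values measure the spread between these arrays. In whole ovaries, fewer germ cells and less RNA per germ cell cannot be told apart.

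In the days before and after birth, rat oocytes leave their clusters and are enclosed in primordial follicles, each an oocyte with a single layer of flat granulosa cells. Piwi-interacting RNAs (piRNAs) are small RNAs bound by proteins of the Piwi family that silence transposons in germ cells, and Tudor-domain proteins gather Piwi proteins in cytoplasmic granules. Oocytes also make and store mRNAs whose translation is held back until it is needed, and RNA-binding proteins decide when each is used.

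The genes were read first at the level of their promoters, because they were chosen for a shared role and not for a shared sequence. RefSeq promoter windows (assembly GRCr8, 250 bases before to 50 bases after the annotated start) were at hand for 7 of the 8 genes, all but Piwil2. The letters CACGTG, known as an E-box, were present in 5 of these 7 windows and in 6.42% of all 33469 windows of the same length. The letters TCCCGC, which resemble the site of the repressor E2F6 and were searched on both strands, were present in the windows of the same 5 genes and in 18.7% of all windows. Both motifs occurred together in 1.78% of all windows. The letters CCAAT, searched after the sequences had been seen, were present in 5 of the 7 windows and in 37.5% of all. Stretches of 30 bases around each E-box are shown because, of the motifs searched, it was the least frequent among all windows, with the motif in capitals.

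Cpeb1: aaaaatagtgccCACGTGtgtgcgcgtccc
Ddx4: tcccggcgtccgCACGTGcagccgtttaag
Mael: caccaggcctacCACGTGacaattccccgc
Piwil1: atcaggacccagCACGTGttcgcctcaccg
Tdrd1: cggagctgagcgCACGTGggagcagactgc

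These stretches lie at chr1:144816291-144816320 (Cpeb1, minus strand), chr2:46016014-46016043 (Ddx4, minus strand), chr13:81029827-81029856 (Mael, minus strand), chr12:33606718-33606747 (Piwil1, minus strand) and chr1:265880926-265880955 (Tdrd1, plus strand). Their E-boxes begin 45, 80, 221, 152 and 87 bases before the start of Cpeb1, Ddx4, Mael, Piwil1 and Tdrd1. Neither motif was found in the windows of Dazl and Nanos3. CpG dinucleotides numbered 22 to 36 in the windows of the 6 genes other than Nanos3 and 1 in that of Nanos3, against a median of 7 over all windows. Both motifs contain a CpG, and among the 7023 windows with at least 22 CpGs the E-box was present in 11.6%, TCCCGC in 50.4% and both motifs together in 5.82%. A match of letters describes the sequence and does not show that a factor binds there.

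Some arrays stood apart before any comparison of treatments. LPS 2 and 3 lay in row 1 of the slide, and LPS 1 and the 3 saline arrays lay in row 2. Markers of the adrenal gland were high on saline 2 and 3. Summed over the 6 adrenal cortex markers, led by Cyp21a1, the signal was 163 and 218 times the 75th percentile on saline 2 and 3 and between 0.74 and 1.55 times on the other 4 arrays. The 7 adrenal medulla markers, led by Pnmt on these arrays, summed to 87.9 and 53.8 times on saline 2 and 3 and to 2.88 to 5.49 times elsewhere. Of these genes, 5 of 6 cortex markers and 6 of 7 medulla markers were at least 2-fold lower with LPS at an unadjusted limma p under 0.05. The germ cell genes are therefore also given without saline 2 and 3 and within slide row.

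On the arrays, none of the 8 genes passed the criterion of a 2-fold difference at an unadjusted p under 0.05 in limma, a linear model fitted over all probes. Levels are given as the log2 of the processed signal relative to the 75th percentile of the same array, so that 0 is the level of that percentile. A gene was represented by its brightest probe. For all 26903 genes the criterion was passed by 0.539% in the direction of LPS and by 1.03% in the direction of saline. After Benjamini-Hochberg adjustment over all probes, 0% of genes had an adjusted p under 0.05, although 4279 genes had an unadjusted one. None of the 8 germ cell genes had an unadjusted p under 0.05 in this fit, which has no replicate block. Their difference was positive, meaning higher with LPS, for 7 of 8 and the median over the 8 was 0.39, while 44.2% of all genes had a positive difference and their median was -0.04. Among the 15887 genes detected (well above background by the criterion of the scanner software) on each of the 6 arrays, 52.8% had a positive difference and the median was 0.01, against 5 of 6 germ cell genes detected on every array, with a median of 0.39. The median over the 8 genes turned in direction with slide row as a block (-0.23). After centring the arrays on oocyte markers it was near 0 (-0.02). It was 0.22 with normexp background correction and 0.14 with no background correction, and it ran from 0.21 without saline 2 to 0.75 without LPS 1.

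Ddx4, the germ cell DEAD-box RNA helicase also called Vasa, is a standard marker of the lineage. Its log2 level was -3.18, -1.77 and -1.64 on LPS 1, 2 and 3, and -3.17, -3.28 and -2.02 on saline 1, 2 and 3. LPS 2 and 3 were the highest, saline 3 came next, and LPS 1 lay with the other two saline arrays at the bottom, so the groups overlapped. The means were -2.20 ± 0.86 with LPS and -2.82 ± 0.70 with saline (SD, n = 3 each), a difference of 0.63 with a standard error of 0.52 and a limma adjusted p of 0.699. The 95% interval of that difference ran from -0.60 to 1.86.

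Among the proteins of the piRNA pathway, Piwil2 (Mili in the mouse) is a Piwi protein that binds piRNAs in early germ cells. Its brighter probe read -2.59, -1.23 and -1.33 with LPS and -2.10, -2.74 and -1.46 with saline, in replicate order. The order of arrays resembled that of Ddx4, with LPS 2 and 3 at the top followed by saline 3, and LPS 1 and saline 2 at the bottom. The difference was 0.38 with a standard error of 0.47 (limma adjusted p = 0.847). The other Piwil2 probe stayed below the detection criterion on every array, and no difference of expression can be read from it.

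Piwil1 (Miwi in the mouse), the family member best known from meiotic and later male germ cells, was near the limit of detection. The probe was well above background on LPS 2 and 3 and on none of the saline arrays. Its log2 levels were -5.25, -3.81 and -4.01 with LPS and -4.93, -4.64 and -4.44 with saline. LPS 1, also below the criterion, was the lowest of the 6 arrays. With 4 of 6 arrays below the criterion no fold is given, and the fitted values, with a limma adjusted p of 0.857, have no settled direction.

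Tdrd1, a Tudor-domain protein that binds methylated arginines of Piwi proteins, was dim as well. It measured -5.27, -4.09 and -3.53 with LPS and -5.73, -5.83 and -4.29 with saline. Only LPS 2, LPS 3 and saline 3 were well above background, and these same arrays held its highest values. The difference was 0.98 with a standard error of 0.57, a 95% interval of -0.39 to 2.35 and a limma adjusted p of 0.490. With replicate number as a block the difference kept that value with a standard error of 0.29, an unadjusted limma p of 0.0228 and an adjusted p of 0.192. Whether replicate numbers pair LPS with saline arrays is not stated in the sources used here. Of the pairs with the same replicate number, only the third had a detected signal on both arrays. The difference of Tdrd1 shrank to 0.13 with normexp background correction, to 0.035 with none and to 0.20 with dim values at the array floor. That of Mael was 0.50, 0.45 and 0.49 in these settings.

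Mael (maelstrom) takes part in transposon silencing and piRNA production. Its levels were -0.16, 0.44 and 0.46 with LPS and -0.05, -0.72 and 0.05 with saline. LPS 2 and 3 again stood highest, saline 2 was clearly lowest, and LPS 1 lay below saline 1 and 3. The difference was 0.49 with a standard error of 0.29 and a limma adjusted p of 0.497.

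Of the translational regulators, Dazl binds germ cell mRNAs and promotes their translation. It was measured by 2 probes for the same transcript. The brighter one read -3.06, -2.37 and -2.24 with LPS and -2.35, -3.75 and -2.81 with saline, with overlapping groups and a difference of 0.41 (standard error 0.40, limma adjusted p = 0.781). The other read -2.61, -2.35 and -2.63 with LPS and -3.13, -4.13 and -3.17 with saline, so that every LPS array lay above every saline array. It was the only one of the 11 probes whose groups did not overlap, and 5.02% of all probes with values had every LPS array above every saline array, against 18.4% with every LPS array below. Its difference was 0.94 with a standard error of 0.30 and a 95% interval of 0.22 to 1.67. The unadjusted limma p was 0.0176 and the adjusted p was 0.271, while an exact two-sided permutation test gave 0.1, the smallest p that 3 arrays against 3 allow. The difference stayed under 2-fold, and the probe was not well above background on saline 2. It was 0.38 with normexp background correction and 0.23 with no background correction.

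Cpeb1 binds the cytoplasmic polyadenylation element and controls the translation of stored maternal mRNAs. Its brighter probe read -0.90, 0.43 and 0.40 with LPS and -0.47, -0.58 and 0.06 with saline. LPS 1 was the lowest array, and LPS 2 and 3 the highest, so the spread among the LPS arrays (SD 0.76) exceeded the treatment difference of 0.30 (standard error 0.40, limma adjusted p = 0.866). The second probe followed the first across arrays with a Pearson r of 0.95 over the 6 arrays and gave a difference of 0.58 (standard error 0.53). For Dazl the corresponding r between probes was 0.76.

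Nanos3, a zinc-finger RNA-binding protein needed for the survival of primordial germ cells, was the only one of the 8 with a negative difference. Its levels were 2.03, 1.65 and 1.33 with LPS and 2.47, 1.36 and 1.42 with saline. Saline 1 was highest and LPS 1 next, arrays on which most of the other genes were low. The difference was -0.08 with a standard error of 0.35 (limma adjusted p = 0.985), and the 95% interval from -0.92 to 0.76 includes changes in both directions.

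**Figure D1:**
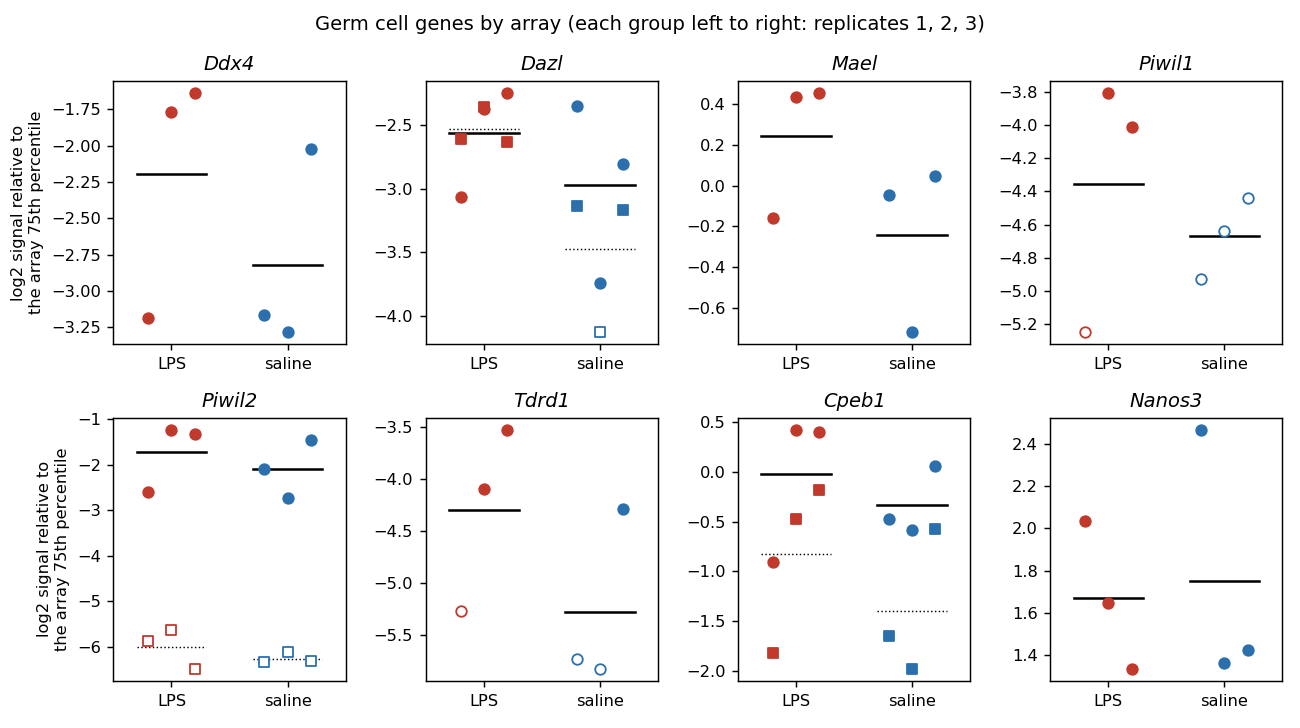
Signal of the 8 germ cell genes on each array, as log2 of the processed signal relative to the array's 75th percentile; red is LPS and blue is saline, circles are the brighter or only probe and squares the other probe, open symbols mark a probe not well above background on that array, and bars are group means (dotted for the other probe). For Ddx4, Piwil2, Tdrd1 and Cpeb1 the LPS array at the left lies far below the other two LPS arrays, while Nanos3 shows another order.

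**Figure D2:**
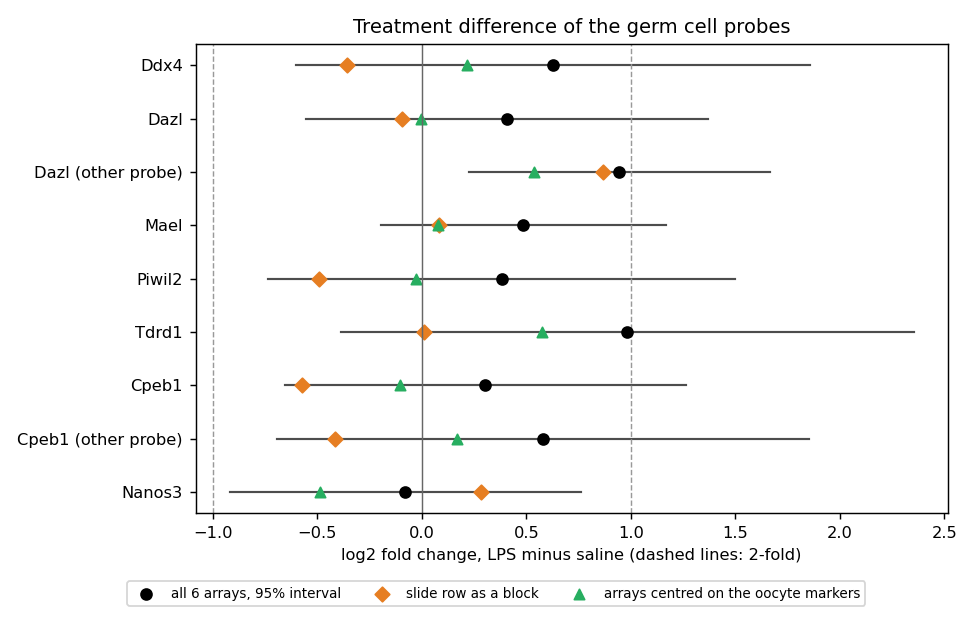
Difference between LPS and saline (log2) for the 9 probes detected on at least 1 array of each treatment, with 95% intervals from limma in black, the same difference with slide row as a block as diamonds, and after centring each array on the oocyte markers as triangles. All intervals but that of the other Dazl probe include 0, and most diamonds lie left of the black points.

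The genes varied together from array to array. Expressed as deviations from each gene's mean over the 6 arrays, the average over the 8 genes was -0.43, 0.52 and 0.55 for LPS 1, 2 and 3 and -0.17, -0.65 and 0.18 for saline 1, 2 and 3. LPS 2 was among the 3 highest arrays for 8 of 8 genes. Saline 2 was the lowest array for 5 of 8, and LPS 1 was among the 2 lowest for 6 of 8. Over the 6 arrays, which share 1 slide and differ in overall signal and position, the 21 pairs that leave out Nanos3 had Pearson correlations from 0.45 to 0.97 with a median of 0.86. The 7 pairs with Nanos3 ran from -0.62 to 0.27 with a median of -0.51. These pairs include Tdrd1, not detected on 3 of the 6 arrays, and Piwil1, not detected on 4. Among Ddx4, Dazl, Mael, Piwil2 and Cpeb1, detected on every array, r ran from 0.63 for Ddx4 and Dazl to 0.96 for Ddx4 and Cpeb1. These correlations are a description of 6 arrays and were not tested.

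**Figure D3:**
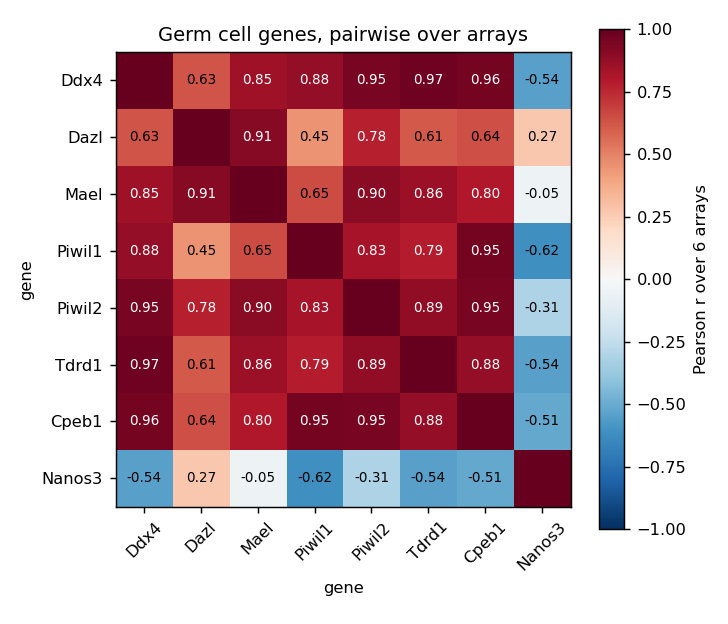
Pearson correlation over the 6 arrays for each pair of the 8 germ cell genes, by the brightest probe of each, with the value in each square. The 21 pairs without Nanos3 are all positive (0.45 to 0.97), and the pairs with Nanos3 run from -0.62 to 0.27.

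Other oocyte genes moved across the arrays in the same way. The 10 oocyte markers with a probe, among them the zona pellucida genes Zp1, Zp2 and Zp3 and the oocyte growth factors Gdf9 and Bmp15, were all detected on every array. Their mean deviation was -0.72, 0.75 and 0.59 on LPS 1, 2 and 3 and -0.42, -0.48 and 0.28 on saline 1, 2 and 3. No oocyte marker passed the 2-fold criterion, 10 of 10 had a positive difference, and the median was 0.43. For the 9 granulosa cell markers measured, led by Inha, the mean deviations were -0.69, 0.71 and 0.38 with LPS and -0.22, -0.42 and 0.25 with saline. The same arrays were thus high for both compartments of the follicle. The mean deviations of the 7 stromal markers were -0.03, 0.20 and 0.15 with LPS and 0.23, -0.20 and -0.34 with saline, with saline 1 and not LPS 2 or 3 the highest. Of the 7 stromal markers only Tcf21 passed the 2-fold criterion, with a difference of 1.08 (limma adjusted p = 0.271).

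When each gene was expressed relative to the mean of the oocyte markers on the same array, an analysis added after these values had been seen, the spread within groups shrank for several genes. The SD among the LPS arrays went from 0.76 to 0.08 for Cpeb1 and from 0.76 to 0.05 for Piwil2. For Ddx4 it went from 0.86 to 0.16. The treatment differences on this scale were -0.11 for Cpeb1, -0.03 for Piwil2, 0.22 for Ddx4, 0.08 for Mael and 0.57 for Tdrd1. Dazl had a difference of -0.0027 by its brighter probe and 0.54 by the other. The difference of Nanos3 was -0.49. The SD among the LPS arrays grew for Nanos3, from 0.35 to 1.12, for Mael, from 0.35 to 0.46, and for the other Dazl probe, from 0.15 to 0.73. The exact permutation p was 0.2 or more for each of the 11 probes on this scale.

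**Figure D4:**
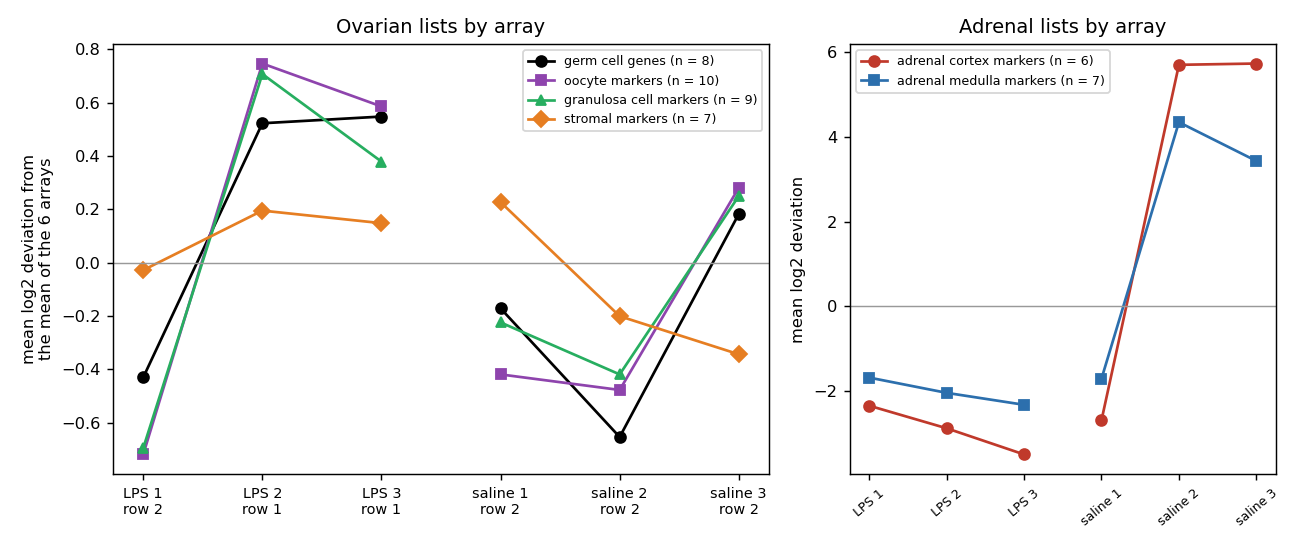
Mean log2 deviation of each list from its own mean over the 6 arrays, on each array, with slide row under the array names at the left; lines join arrays of 1 treatment and n is the number of genes with a probe. The germ cell genes (black) are at -0.43, 0.52 and 0.55 on LPS 1, 2 and 3, the oocyte markers at -0.72, 0.75 and 0.59, and the adrenal lists at the right are high on saline 2 and 3.

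Within row 2 of the slide, LPS can be compared with saline through LPS 1 alone, so this fit sets 1 LPS array against 3 saline arrays and takes its spread from the other arrays of each row and treatment. LPS 1 was low for most of these genes. With slide row as a block the difference was -0.36 for Ddx4, -0.49 for Piwil2, -0.57 for Cpeb1 and -0.10 for the brighter Dazl probe, all opposite in sign to the values over the 6 arrays. It was 0.08 for Mael and 0.28 for Nanos3. Piwil1 was below the detection criterion on all 4 arrays of row 2, and Tdrd1 on all but saline 3, so no value is read from them there. The other Dazl probe had a difference of 0.87 with an unadjusted limma p of 0.0979 (adjusted p = 0.583). The median over the 8 genes was -0.23 in that fit and no gene of the 8 was called. Within row 1 there is no saline array, so row and treatment cannot be told apart for LPS 2 and 3.

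Single arrays decided whether any of the genes passed the criterion. Without LPS 1 the difference was 1.12 for Ddx4, which passed. The fitted value of Tdrd1, 1.47, also passed, with 2 of the 3 saline arrays below the detection criterion. The second Cpeb1 probe also passed, at 1.08. Over all probes 308 were then called higher and 600 lower, against 186 and 327 in the main fit. Without saline 3 the fitted value of Tdrd1 also passed, but no saline array with a detected signal was then left for it, so no fold is given. The other Dazl probe passed at 1.0999 without that array and at 1.12 without saline 1. Over all probes the calls were 336 higher and 219 lower without saline 3, and 374 and 757 without saline 1. Some differences were smaller without another array. That of Ddx4 was 0.35 without LPS 3, that of Tdrd1 0.60 without LPS 3, and that of Cpeb1 0.079 without LPS 2. Without saline 2, Piwil2 had 0.062, Mael 0.24, and the brighter and the other Dazl probe 0.017 and 0.62. Without any scaling between arrays Tdrd1 passed at 1.36 and the other Dazl probe at 1.32, but the median of all probes was then 0.34, against -0.04 with scaling.

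With saline 2 and 3 both left out, which leaves saline 1 as the only control array and assumes that it varies like the LPS arrays, none of the 8 germ cell genes was called and their median difference was 0.41. The difference of Nanos3 was then -0.80, that of Ddx4 0.97 and that of the brighter Dazl probe -0.21. Beyond this, the part of the adrenal signal in the germ cell values was not tested.

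Further members of the piRNA pathway gave a similar picture. Of 24 listed genes 17 had a probe, none was called in either direction, and 12 had a positive difference with a median of 0.11. Leaving out LPS 1 gave 3 called genes, leaving out saline 3 gave 1 and leaving out the scaling between arrays gave 2. Over all probes the calls were 308 higher and 600 lower without LPS 1, and 336 and 219 without saline 3. Without scaling they were 1003 and 227, against 186 and 327 in the main fit. Among the 11 genes of this list detected on every array, 10 had a positive difference and the median was 0.38. Gpat2, a mitochondrial protein needed for piRNA production, had the largest difference of these 11, 0.84 (standard error 0.34, limma adjusted p = 0.294). Tdrd5, a Tudor-domain protein, had a difference of 0.83 (standard error 0.59). Tex19.1 had 0.46, Gtsf1, a partner of Piwi proteins, had 0.42 and Tex15, a factor of transposon silencing, had 0.40. Prmt5, which methylates the arginines that Tudor domains bind and is made in many cell types, varied by only 0.37 between its lowest and highest array.

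Of 26 other RNA-binding proteins of germ cells 15 had a probe. None was called, 9 had a positive difference and the median was 0.06. Without saline 3 the calls over all probes were 336 higher and 219 lower, and 1 gene of this list was called. With slide row as a block they were 1489 and 66, and again 1 gene of this list was called. Among the 11 well above background on all arrays, those with the largest differences included Ddx6 (-0.66), a helicase of mRNA storage granules, Zar1 (0.46), an oocyte factor that binds maternal mRNAs, Lin28a (0.39), which blocks the maturation of let-7, and the poly(A)-binding protein Pabpn1l (0.24). The limma adjusted p was 0.369 for Ddx6 and higher for Zar1, Lin28a and Pabpn1l. Several of this list, such as Ybx1 and Ybx3, are made in most cell types.

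The genes that followed the germ cell genes most closely over the 6 arrays were sought among 9689 named genes well above background on all of them, by the Pearson correlation with the mean of the 6 germ cell genes that met the same condition. Nanos3 was among these 6 and ran across the arrays in another order than the rest. Pabpn1l was first, with r = 0.99. Cd83, Spice1, Drc7, Cela3b, Mgrn1, Traf2, Mkrn2, Oog3l1 and Hrob completed the first 10, down to r = 0.98. Their treatment differences ran from 0.14 for Spice1 to 0.40 for Oog3l1. Gtsf1 ranked 14th and Lhx8, a transcription factor of the early oocyte, ranked 22nd. The first 10 were picked by r from 9689 genes, and these correlations over 6 arrays were not tested.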

How the data were processed

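Ovarian RNA of 6 samples was labeled and hybridised to single-colour Agilent arrays, and the labels gave the treatment and replicate number of each array. The authors deposited the spot intensity values of each array as written by Feature Extraction 10.5.1.1, with background already subtracted and dim spots replaced by a surrogate, and a table whose intensity values equal these within 0.497%. A 2-fold and p threshold is stated for the arrays and analysis of variance for all data of the study, while a normalization for the arrays is not given in the sources used here; lumi is named in the submitters' processing notes without a role.

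Control spots and flagged spots were left out (58717 of 62976 spots were not controls), log2 spot values were averaged per probe, and the 75th percentile of each array was subtracted. The subtracted value was taken over the probe averages. Taken over single non-control spots with flagged ones kept, the 75th percentile was a signal of 3956, 5025 and 6754 for LPS 1 to 3. It was 2824, 5801 and 3941 for saline 1 to 3. Of these spots 66.3% to 76.0% were well above background, and none was saturated. limma 3.58.1 in R 4.3.3 (lmFit, eBayes) was fitted to 30367 probes with at least 2 values in each group, and p-values were adjusted by Benjamini-Hochberg. The procedure was tested on simulated data with independent arrays and changes larger than those of the germ cell genes. That test therefore does not bear on differences of their size. A probe was well above background where most of its unflagged spots were. No fold is given where a group had no such array. Fitted values of such probes are listed only to complete the count of sign changes. The number of arrays and the signal over background limit the precision.

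The column for gene names held no entries, so probes were named by RefSeq accession through a table of assembly GRCr8, which gave 17998 probes a symbol. The brightest probe stood for a gene. Named are all probes of the chosen genes; in the lists of other piRNA and RNA-binding genes those called and the 5 largest differences well above background on all arrays, of which 1 gene is not reported here; and the 10 genes most alike. The germ cell genes, the gene lists and the tests were chosen with earlier results of these data known. Promoters are RefSeq sequences of assembly GRCr8, and the motifs were searched on both strands; their matches in these windows did not overlap.

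Arrays with the same replicate number deviated together from their group means (correlation over probes 0.298, 0.215 and 0.254 for numbers 1, 2 and 3). Correlations between unlike numbers were not computed, so these values cannot show that the numbers pair the arrays. The labels state no pairing, and whole litters received the same treatment. A fit with replicate number as a block was made beside the unpaired one. In all, 22 alternatives were run, 1 of them added after the data had been seen.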

Additional observations from a re-analysis of the deposited data

How the results depend on the processing

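Of 236 values of single probes under 22 alternatives, 205 kept their sign and their side of the 2-fold criterion, 23 changed sign and 8 newly passed. The count of the 8 genes called lower was 0 in every alternative. The count called higher was 1 without scaling between arrays, and ranged from 0 to 2 when 1 array was left out. It was 2 without LPS 1 and 1 without saline 3. Over all probes 1003 were called higher without scaling, 308 without LPS 1 and 336 without saline 3, against 186 in the main fit. The median over the 8 genes was -0.23 with slide row as a block, -0.02 after centring on the oocyte markers, 0.77 without scaling between arrays, and from 0.21 to 0.75 when 1 array was left out.

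Sign changes fell as follows. The other Piwil2 probe was detected on none of the arrays and Piwil1 on 2 of 6, so no direction is read from their values. Their sign changes, 4 for each, are in the count above. Their fitted values in those settings are listed here only to complete that count. With dim values at the array floor the other Piwil2 probe had -0.57. With normexp background correction the difference was -0.16 for the other Piwil2 probe, -0.076 for Piwil1 and 0.0021 for Nanos3, and with no background correction it was -0.13, -0.068 and 0.0093. Without scaling Nanos3 had 0.30. With slide row as a block the values were -0.58 for Piwil1, -0.49 for Piwil2, -0.42 and -0.57 for the other and the brighter Cpeb1 probe, 0.28 for Nanos3, -0.10 for Dazl and -0.36 for Ddx4. Leaving out 1 array gave -0.27 to 0.28 for Nanos3, with a positive sign without LPS 3 (0.09) and without saline 1 (0.28). Without saline 2 and 3 the brighter Dazl probe had -0.21. After centring on the oocyte markers the values were -0.14 for the other and -0.028 for the brighter Piwil2 probe, -0.10 for Piwil1, -0.11 for Cpeb1 and -0.0027 for Dazl. The cause of these changes was not tested.

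Over all probes, 186 were called higher and 327 lower. The higher and lower counts were 118 and 173 with quantile normalization, 104 and 177 with a filter on dim probes, 100 and 48 with a test of equal variances for each probe alone (standing for the analysis of variance that the methods name for all data), 1489 and 66 with slide row as a block, 494 and 506 without saline 2 and 3, and 11 and 624 after centring on the oocyte markers. The count higher was 2 with normexp, 0 with no background correction (211 lower), 1003 without scaling and 31 with dim values at the floor. With 1 array left out the counts were 129 to 374 higher and 81 to 757 lower. The replicate block changed no call of the germ cell genes. After adjustment 0 probes passed, and 5 did with slide row as a block, a fit that rests on LPS 1 as the only LPS array of its row with saline.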
